A study of Mus musculus with 38 samples.

Results

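The proteins of the mitochondrial ribosome were followed through RNA sequencing counts of 3 cell populations of the mouse heart. The members were the protein-coding genes of the count table whose symbol begins with Mrpl or Mrps and a number, which gave 78 of 21523 protein-coding genes and of 35682 genes in all. Of these, 49 carry an Mrpl symbol, for the large subunit, and 29 an Mrps symbol, for the small subunit. A further 6 genes with such symbols are pseudogenes and were left out. The symbols do not follow the structure in every case. Mrps30 and Mrps18a sit in the large subunit of the assembled particle, and Mrps36 is now known as a subunit of the 2-oxoglutarate dehydrogenase complex. They were kept with the small subunit by symbol.

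The mitochondrial ribosome, or mitoribosome, translates the few mRNAs of the mitochondrial genome, which encode core subunits of the respiratory chain and ATP synthase. Its RNAs are made in the organelle, whereas all of its proteins are encoded in the nucleus, made in the cytosol and imported. Heart muscle is rich in mitochondria, and inherited defects of several of these proteins, Mrpl44 among them, cause cardiomyopathy.

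The animals were male C57BL/6 mice, aged 8 to 12 weeks. Sham mice received vehicle (DMSO in saline) by mouth for 6 weeks and a chest operation without ischemia. Control-AMI mice (labelled Control_IR) received the same vehicle for 6 weeks, then 30 min of ischemia by ligation of the left anterior descending artery and 2 h of reperfusion. EMPA–Pre-AMI mice (labelled EMPA_IR) received empagliflozin, an SGLT2 inhibitor, at 10 mg/kg/d in that vehicle for 6 weeks before the same ischemia and reperfusion. No group received empagliflozin without ischemia. Each library held cells of a pair of pooled hearts, from the ischemic part below the suture. Cardiomyocytes were a low-speed pellet and were not sorted, ECs were sorted as CD45- CD31+ cells and fibroblasts as CD45- CD31- CD90+ cells. The sorted cells came from the supernatant of that pellet, so libraries of different populations can hold cells of the same hearts. Which libraries share hearts is not stated. The 38 libraries split, in the order Sham, Control-AMI and EMPA–Pre-AMI, into 4, 5 and 4 of cardiomyocytes, 4, 4 and 5 of ECs and 4 per condition of fibroblasts.

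The kit primes from the poly(A) tail, so each transcript is read near its 3′ end. A library held 2031726 to 4509305 counts (cardiomyocytes), 1352528 to 2195319 (ECs) or 1946070 to 2821386 (fibroblasts). Of these, mitochondrially encoded genes took 46.6% to 66.01%, 4.52% to 14.6% and 3.48% to 12.5%. The large-subunit genes together had 2956 to 7966 counts per cardiomyocyte library, 1574 to 2601 per EC library and 2083 to 4091 per fibroblast library. Of the 78 members, 77 passed the filter on low counts in every population (49 large, 28 small). The exception was Mrps28, with 0 to 10 counts per cardiomyocyte library and 0 counts in 7 of 13. It had 0 to 7 counts in fibroblasts and 0 to 5 in ECs. A count of 0 allows up to 3 counts, or 0.665 to 1.48 CPM in a cardiomyocyte library, 1.37 to 2.22 in an EC library and 1.06 to 1.54 in a fibroblast library, where CPM are counts scaled to a common library size. Mrpl23 is uncertain, since its pseudogene Mrpl23-ps1 took 59 to 156 counts per cardiomyocyte library against 5 to 19 for Mrpl23.

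The members lay on 17 chromosomes, and 20 of the 78 (25.6%) started within 1000 bases of a gene that runs the other way, against 6.24% of protein-coding genes. The latter share is over all protein-coding genes, and it was not counted over only those tested. Some of these partners belong to the same organelle, but how many was not counted, and the 3 pairs named next were chosen for display. Mrps12 shares its start region with Sars2, the mitochondrial seryl-tRNA synthetase, Mrpl43 with Twnk, the helicase of mitochondrial DNA, and Mrpl46 with Mrps11, so that a large-subunit and a small-subunit gene diverge. The strips between the starts of the canonical transcripts of these 3 pairs are shown because both genes run outward from them. Other transcripts of Mrps12, Mrpl46 and Mrpl43 start further out, so that each strip lies inside the annotated row of its member, which overlaps its partner. The strips are given on the minus strand of GRCm39 (chr7:28441269-28441396, chr7:78432838-78432866 and chr19:44994882-44994936). Capitals mark CCGGAAG, a core letter run bound by ETS factors such as GABP, or its complement CTTCCGG.
Mrps12 to Sars2: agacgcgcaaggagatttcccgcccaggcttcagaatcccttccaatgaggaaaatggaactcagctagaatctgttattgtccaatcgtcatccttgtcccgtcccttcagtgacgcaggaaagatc
Mrpl46 to Mrps11: gcccctcgccggcccgcgttgcctcatgg
Mrpl43 to Twnk: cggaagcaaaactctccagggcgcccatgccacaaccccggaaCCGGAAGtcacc
The strips of Mrps12 and Mrpl46 hold no such run. The start window of Mrps12, which reaches beyond its strip and is described next, holds 1. Mrpl38 is shown as a member with the run in a start region free of other genes (minus strand, chr11:116029805-116029861).
Mrpl38: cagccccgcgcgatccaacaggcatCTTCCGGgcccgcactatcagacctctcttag

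In windows of 250 bases before to 50 bases after each start, CCGGAAG on either strand was found in 24 of 78 members (30.8%). The share was 30.6% for the large and 31.0% for the small subunit, against 10.3% of all 21523 protein-coding genes and 15.3% of the 11738 protein-coding genes tested across all libraries. Other letter runs were rarer, each counted on either strand. The NRF1 letters GCGCATGCG were in 5 members (Mrpl9, Mrpl10, Mrpl22, Mrpl32 and Mrps18b, 6.41% against 2.37% of all and 3.21% of those tested). The YY1 letters AAGATGGCG were in 4 (Mrpl36, Mrpl42, Mrps11 and Mrps18a, 5.13% against 1.35% of all and 2.18% of those tested). The cyclic AMP response element TGACGTCA was in 2 (2.56% against 2.45% of all and 3.26% of those tested). The ATF4 composite letters TGATGNAA were in 1 (1.28% against 3.796% of all and 2.44% of those tested). Members that hold both NRF1 and ETS letters are counted under each. Median GC content of the windows was 57.5% in the members, 54.3% in all protein-coding genes and 58.3% in those tested. These matches describe letters in a window, not bound sites.

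In Sham hearts the members were more abundant in the cardiomyocyte libraries than in the sorted populations. To compare populations, CPM were scaled by TMM factors over all 38 libraries (TMM is edgeR's trimmed-mean scaling). On this scale the summed level of the large-subunit genes was 3502, 3309, 4107 and 3308 CPM in the Sham cardiomyocyte libraries, 797.1, 991.6, 938.8 and 943.9 in fibroblasts and 762.5, 787.6, 797.1 and 788.9 in ECs. Small-subunit genes summed to 1940, 1777, 2136 and 1721 CPM in cardiomyocytes, 483.9, 554.9, 563.5 and 581.2 in fibroblasts and 443.5, 515.6, 432.1 and 485.6 in ECs. Every cardiomyocyte library was above every library of the sorted populations for both subunits, while fibroblasts and ECs overlapped for the small subunit. The ratio of mean summed CPM, cardiomyocytes over ECs, was 4.54 for the large and 4.04 for the small subunit, and over fibroblasts it was 3.87 and 3.47.

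**Figure D1:**
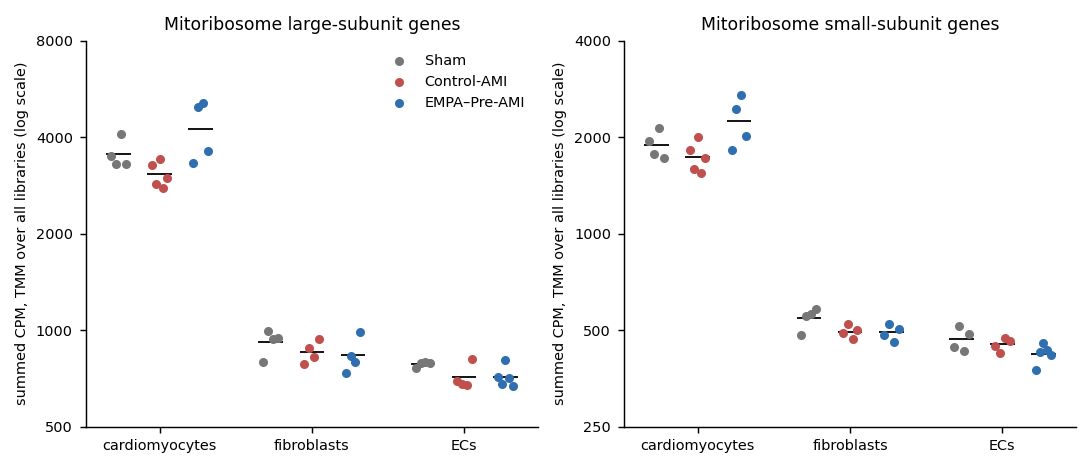
Summed CPM of the large-subunit genes (left) and small-subunit genes (right) in each of the 38 libraries, on a log axis with TMM scaling over all libraries. Points are libraries, bars are group means. The Sham cardiomyocyte libraries lie between 3308 and 4107 CPM for the large subunit, and the Sham ECs between 762.5 and 797.1.

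Gene by gene, with edgeR's quasi-likelihood test on the 12085 genes kept across all libraries, 70 of 77 members were higher in cardiomyocytes than in ECs at a false discovery rate (FDR, the Benjamini-Hochberg adjusted p) below 0.05 and 0 were lower, where 28.1% of all genes tested were called higher and 24.8% lower. By subunit these were 44 of 49 and 26 of 28, with median log2 fold changes of 2.04 and 2.03 (all genes: -0.04). Against fibroblasts 70 of 77 were again higher and 0 lower (44 and 26), beside 24.5% higher and 22.7% lower of all genes, with medians of 1.57 and 1.71 (all genes: -0.09). The members called in each of these comparisons were not identical sets. Mrpl32, Mrpl22, Mrpl38, Mrpl17, Mrps26, Mrpl23 and Mrps14 did not pass against ECs, and Mrpl10, Mrpl24, Mrpl22, Mrpl38, Mrps10, Mrps26 and Mrpl23 did not pass against fibroblasts. These comparisons share the Sham cardiomyocyte libraries. The populations also differed by a number in the library names, described below with empagliflozin, whose part was not tested.

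The calls depended on how libraries were scaled. With plain library sizes only 21 members were called higher and 13 lower against ECs, and 17 and 15 against fibroblasts, while the median of all genes shifted to -1.85 and -1.83. Of all 12085 genes 9877 and 10054 were then called in either direction. With library sizes that leave out mitochondrially encoded genes, 57 and 52 members were higher and 0 lower, and the all-gene median was -0.76 in both comparisons. Here 7821 and 7642 of all 12085 genes were called in either direction. Relative to the median of all genes, the members' median stood at 2.07 (ECs) and 1.71 (fibroblasts) with TMM, and all 77 members lay above the all-gene median in both comparisons. A change of scaling moves the log2 fold changes of all genes by one amount, so this position is fixed by construction, apart from small effects of the fit, and is no check on the calls.

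Mrpl12, a stalk protein that also binds the mitochondrial RNA polymerase, differed most between cardiomyocytes and ECs. Mrpl12 was at 223.1, 226.5, 269.8 and 225.7 CPM in Sham cardiomyocytes, 27.3, 30.9, 31.3 and 29.3 in fibroblasts and 20.1, 15.2, 15.9 and 17.8 in ECs. The 3 populations did not overlap, with log2 fold changes of 3.77 ± 0.29 (SE) against ECs (edgeR FDR = 1.63e-14), 2.99 ± 0.27 against fibroblasts (FDR = 2.94e-12), and -0.78 ± 0.27 for ECs against fibroblasts (FDR = 0.0201).

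Mrps23, a small-subunit protein found in mitochondrial but not in bacterial ribosomes, was at 218.6, 197.5, 210.4 and 169.4 CPM in Sham cardiomyocytes. In fibroblasts Mrps23 was at 17.3, 24.1, 23.3 and 17.996 CPM and in ECs at 18.6, 24.7, 17.2 and 16.9. Fibroblasts and ECs overlapped for this gene and cardiomyocytes stood apart, with log2 fold changes of 3.35 ± 0.25 and 3.26 ± 0.24 against ECs and fibroblasts (edgeR FDR = 7.81e-15 and 1.25e-14).

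Mrps36, the gene whose product is now placed in the 2-oxoglutarate dehydrogenase complex, was at 105.4, 70.0, 107.1 and 71.2 CPM in cardiomyocytes. In the other populations Mrps36 was at 8.42, 12.96, 10.0 and 18.5 CPM (fibroblasts) and 6.93, 12.2, 3.98 and 4.78 (ECs). It too was higher in every cardiomyocyte library, by a log2 fold change of 3.63 ± 0.34 against ECs (edgeR FDR = 4.36e-12).

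Among the members highest against fibroblasts were also Mrpl42 (log2 fold change 3.26) and Mrpl34 (3.19). At the other end, the smallest differences past the threshold against ECs were those of Mrpl24 (0.53, FDR = 0.0129), Mrpl27 (0.81, FDR = 0.0428) and Mrps5 (0.87, FDR = 0.000227), all with edgeR. Against fibroblasts they were Mrpl52 (0.68, FDR = 0.00481), Mrpl20 (0.76, FDR = 0.0462) and Mrps2 (0.84, FDR = 0.0439). In 38 fits that each left out 1 library, Mrpl24 lost its call in 2 (highest edgeR FDR 0.0685, without cardiomyocyte Sham replicate 3), Mrpl27 in 6 (0.122, without EC Sham replicate 1), Mrpl20 in 10 (0.117, without fibroblast Sham replicate 1) and Mrps2 in 5 (0.158, without cardiomyocyte Sham replicate 3).

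Proteins with a known place in the particle showed the same direction with varied size. At the base of the stalk that binds translation factors, Mrpl11 had log2 fold changes of 2.34 ± 0.24 against ECs and 2.58 ± 0.24 against fibroblasts, while Mrpl10 had 1.79 ± 0.43 and 0.78 ± 0.40, the latter with an edgeR FDR of 0.109. Mrpl45, which lies at the exit of the peptide tunnel and faces the inner membrane, had 2.39 ± 0.24 and 2.15 ± 0.23. Mrpl58, a peptidyl-tRNA hydrolase built into the large subunit, had 2.36 ± 0.27 and 2.22 ± 0.27. Mrpl44 had 1.43 ± 0.39 and 1.57 ± 0.39.

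In the small subunit, Mrps12, a protein of the decoding site, had 2.00 ± 0.27 against ECs and 1.87 ± 0.27 against fibroblasts, on the log2 scale. Mrps27, an RNA-binding protein of the pentatricopeptide repeat family, had 2.28 ± 0.31 and 2.02 ± 0.30. Mrps5 had 0.87 ± 0.19 and 1.03 ± 0.19, less than the median member in both comparisons. The 3 paralogs of bacterial protein S18 differed among themselves. Mrps18a had 2.64 ± 0.31 and 1.77 ± 0.28, Mrps18b 1.51 ± 0.35 and 1.03 ± 0.34, and Mrps18c 1.33 ± 0.30 and 1.84 ± 0.30. Mrps30 had 1.47 ± 0.24 and 1.06 ± 0.23. All of these values except that of Mrpl10 against fibroblasts passed an FDR of 0.05 in edgeR.

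Between the sorted populations the differences were small. In ECs against fibroblasts 1 of 49 large-subunit genes was higher and 6 lower, and 0 of 28 small-subunit genes were higher and 3 lower, beside 17.6% higher and 20.2% lower of all genes. The medians were -0.19 and -0.32 (all genes: -0.04). The genes lower in ECs were Mrpl52, Mrpl57, Mrpl13, Mrpl30, Mrpl54, Mrpl12, Mrps18a, Mrps16 and Mrps9, and the gene higher in ECs was Mrpl17. Mrpl52 was at 17.9, 26.2, 23.6 and 19.5 CPM in Sham ECs and 36.7, 54.5, 41.9 and 57.7 in fibroblasts, without overlap (log2 fold change -1.12 ± 0.21, edgeR FDR = 2.08e-05). Mrpl54 had a log2 fold change of -1.12 ± 0.28 (FDR = 0.00148), and Mrpl17 had 0.63 ± 0.19 (FDR = 0.00732).

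Among other genes of mitochondrial gene expression, the number higher in Sham cardiomyocytes varied from list to list, beside the 28.1% of all genes called higher against ECs. Against ECs, 5 of 5 mitoribosome subunits with other symbols were higher in cardiomyocytes (median 1.75). Of 22 assembly factors of the mitoribosome 11 were higher and 1 lower (median 1.09), and 9 of 11 translation factors were higher (1.21). Of 16 mitochondrial aminoacyl-tRNA synthetases 7 were higher (0.71), and 6 of 6 factors of mitochondrial transcription and mRNA stability (1.93). Nuclear regulators of mitochondrial genes were split, with 3 of 9 higher and 2 lower (-0.16).

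Genes for the respiratory chain, which holds the products of the mitoribosome, had larger medians. Nuclear genes of the respiratory chain and ATP synthase were higher in 83 of 84 (median 3.91), and mitochondrially encoded mRNAs in 13 of 13 (4.44). Cytosolic ribosomal proteins were higher in 37 of 83 and lower in 3 (0.38). Against fibroblasts the medians were 0.82 for assembly factors, 1.61 for translation factors, 0.92 for synthetases, 3.58 for nuclear respiratory chain genes, 4.19 for mitochondrially encoded mRNAs and -0.13 for cytosolic ribosomal proteins. These are log2 fold changes set side by side, and the differences between lists were not tested.

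**Figure D2:**
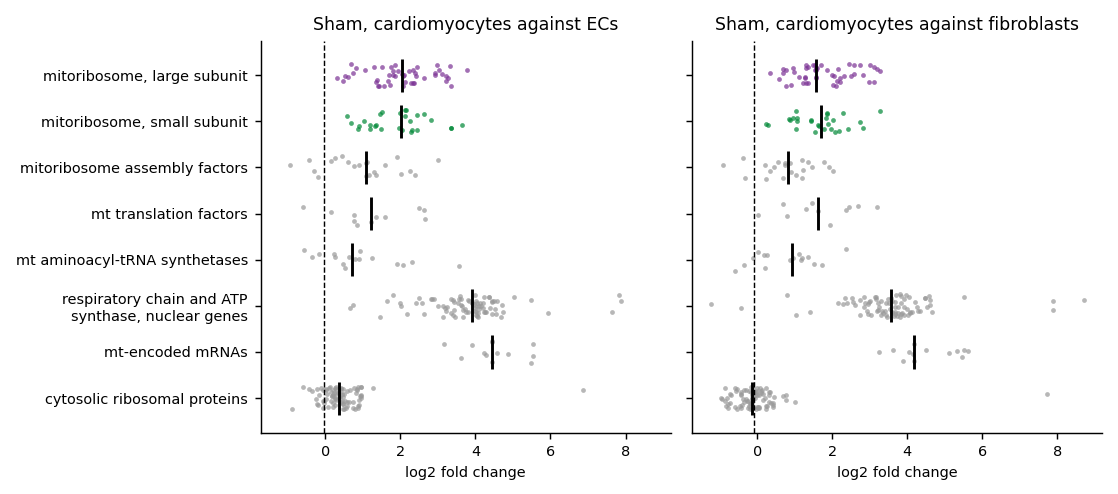
Log2 fold changes between Sham populations for the genes of each list, cardiomyocytes against ECs (left) and against fibroblasts (right). Each point is 1 gene, bars are list medians and the dashed line is the median of all genes tested. The mitoribosome subunits (medians 2.04 and 2.03 against ECs) lie between cytosolic ribosomal proteins (0.38) and respiratory chain genes (3.91).

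The markers bore out the labels of the populations. Against each sorted population 10 of 10 cardiomyocyte markers were higher in cardiomyocytes, and 10 of 10 endothelial and 10 of 10 fibroblast markers were higher in their own sorted population. Pecam1 (CD31) and Thy1 (CD90) are among these, and since the cells were sorted on their products they are no independent check. The unsorted cardiomyocyte pellet also held RNA of other cells, as 8 of 10 fibroblast markers were higher there than in ECs and 9 of 10 endothelial markers were higher there than in fibroblasts. Cardiomyocyte markers summed to 80306 to 97005 CPM in the Sham cardiomyocyte libraries (TMM over all libraries), against 304.0 to 1161 in the Sham ECs and 129.7 to 719.7 in the Sham fibroblasts, and Nkx2-5 was at 0 in all Sham libraries of both sorted populations. In such bulk samples fewer cells of a type and less RNA per cell cannot be told apart.

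Ischemia and reperfusion alone moved no member past the threshold in cardiomyocytes. The populations were now fitted one by one, with CPM scaled by TMM factors within the population. In Control-AMI against Sham 0 of 77 members passed an edgeR FDR of 0.05, where 0.0655% of 9167 genes were called. A single member had an unadjusted p below 0.05, and DESeq2 called 0, beside 18 of all genes. Of the members 15 were higher and 62 lower, with median log2 fold changes of -0.20 (large) and -0.12 (small) against 0.01 over all genes. Summed large-subunit levels were 1534, 1469, 1796 and 1465 CPM in Sham and 1410, 1299, 1475, 1285 and 1332 in Control-AMI. Small-subunit sums were 849.9, 788.5, 934.3 and 762.0 in Sham and 782.7, 723.5, 863.5, 716.3 and 772.6 in Control-AMI. The groups overlapped for both subunits.

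Empagliflozin before ischemia went with higher values of most members in cardiomyocytes. In EMPA–Pre-AMI against Control-AMI 0 members passed an edgeR FDR of 0.05 (0.0218% of all genes did). DESeq2 called 22 members, beside 812 of all 9167 genes. An unadjusted p below 0.05 was found for 47 members, a count given without the share over all genes. At an FDR below 0.1, 25 of 77 members were higher and 0 lower, beside 5.33% of all genes called higher. They were 16 of 49 large-subunit and 9 of 28 small-subunit genes. Of all members 74 had a positive log2 fold change (46 large, 28 small), and the medians were 0.53 and 0.47 against -0.01 over all genes.

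The summed levels show which libraries carried the difference. The large-subunit genes summed to 1522, 2562, 2254 and 1576 CPM in EMPA–Pre-AMI replicates 1 to 4, and the small-subunit genes to 833.4, 1267, 1195 and 879.0. Replicates 2 and 3 were above every Sham and Control-AMI library for both subunits, while replicates 1 and 4 lay within the range of the Sham libraries. The ratio of group means, EMPA–Pre-AMI over Control-AMI, was 1.45 for the large and 1.35 for the small subunit. Of the 25 members called, 15, 24, 25 and 16 were above every Control-AMI library in replicates 1 to 4, with median ratios to the Control-AMI mean of 1.26, 2.45, 1.98 and 1.22. Since the call used these values, this count describes the libraries. Among all 77 members, 11 had every EMPA–Pre-AMI library above every Control-AMI library, beside 2.38% of all genes. They were Mrpl2, Mrpl36, Mrpl13, Mrps5, Mrpl1, Mrpl54, Mrpl55, Mrps26, Mrpl50, Mrpl18 and Mrpl33.

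The same libraries also differed by a number that follows the letter S in the library names of the labels. Over all populations these numbers fall into 4 ranges (1 to 8, 9 to 23, 25 to 34 and 37 to 67), within each of which the other number of the name rises, and it starts again at the next. All Sham and Control-AMI cardiomyocyte libraries and EMPA–Pre-AMI replicate 4 were in the fourth range, replicate 2 in the second and replicates 1 and 3 in the third. What these numbers stand for is not stated, and library preparation is described as done at one time. Since the second range and the third hold no Sham or Control-AMI cardiomyocyte library, a fit with the range as a term compares EMPA–Pre-AMI replicate 4 alone with Control-AMI. In that fit 0 members passed an FDR of 0.1, 64 were higher, and the median was 0.23. The fit of only the libraries of the fourth range makes the same comparison and is no separate check (0 passed, median 0.24). In both the lone library is assumed to vary like the other groups, and for replicates 1 to 3 the range and the treatment cannot be told apart. Without replicates 2 and 3 of EMPA–Pre-AMI 0 passed, 64 members were higher and the median was 0.22.

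The count at an FDR below 0.1 was 4 without EMPA–Pre-AMI replicate 2 and 0 without replicate 3. It was 33 and 39 without replicates 1 and 4. It was also 0 without Control-AMI replicate 4 or 5, 5 without Control-AMI replicate 2, and 8 to 17 without 1 Sham library. The number of all genes called in these fits is not given, so the counts cannot be set against it. When any 1 library was left out the median of the large subunit was 0.45 to 0.65. That of the small subunit was 0.28 to 0.57, lowest without EMPA–Pre-AMI replicate 3. With plain library sizes 3 members passed and 56 were higher, and with library sizes without mitochondrially encoded genes 4 passed and 68 were higher, as the all-gene median shifted to -0.32 and -0.18. Of all 9167 genes 1179 and 910 then passed in either direction. With TMM the members' median was 0.52 above that of all genes, a distance that no scaling can change.

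**Figure D3:**
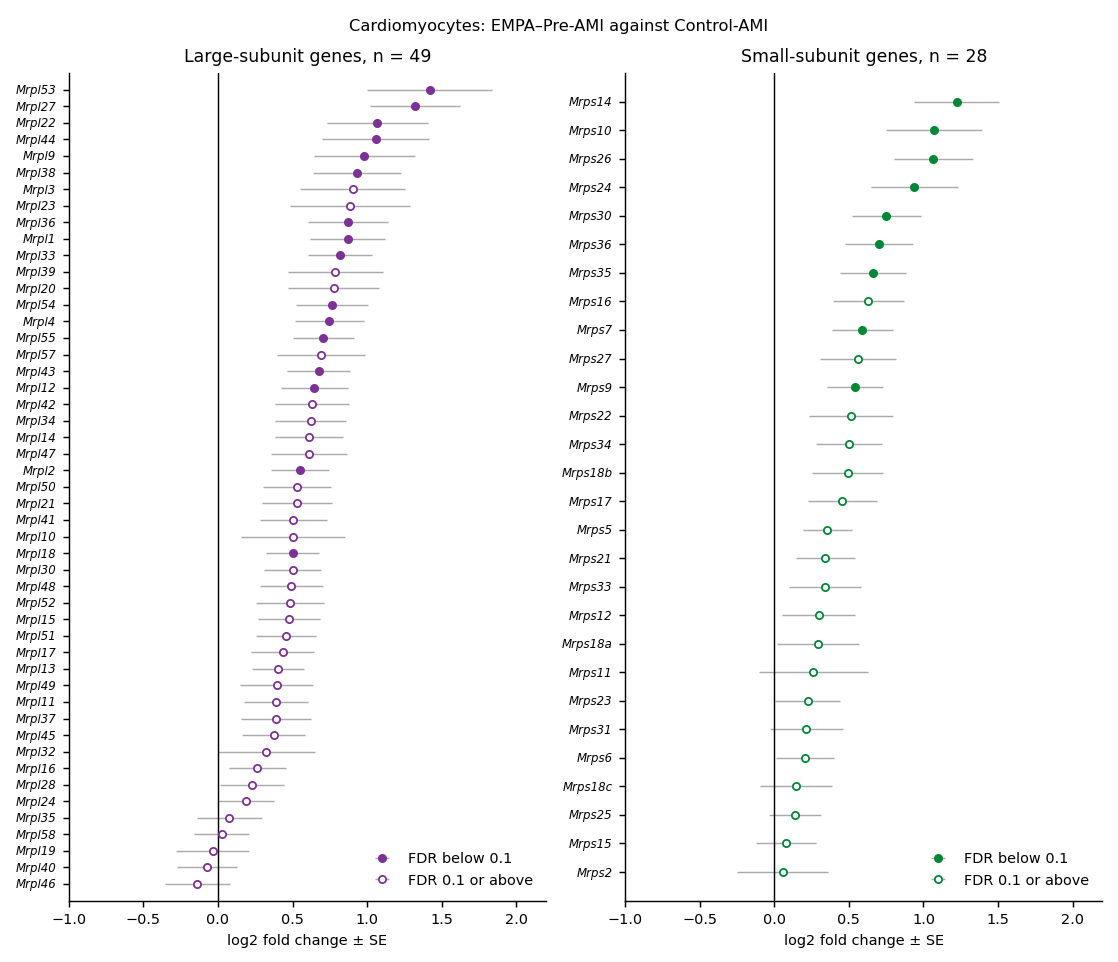
Log2 fold change of each large-subunit gene (left) and small-subunit gene (right) in cardiomyocytes, EMPA–Pre-AMI against Control-AMI, with bars of 1 SE. Filled points passed an FDR of 0.1 in edgeR. The points lie above 0 for 46 of 49 large-subunit and 28 of 28 small-subunit genes.

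The genes with the smallest p in each subunit are given library by library, in CPM scaled within cardiomyocytes. Mrpl27 (ENSMUSG00000024414, GRCm39 chromosome 11, 94544584 to 94552984, plus strand), a large-subunit protein near the peptidyl transferase center in bacterial ribosomes, was at 9.86, 9.47, 11.3 and 7.37 CPM in Sham. It was at 10.7, 5.75, 5.91, 4.33 and 3.87 in Control-AMI and 16.99, 18.8, 16.98 and 9.85 in EMPA–Pre-AMI. EMPA–Pre-AMI replicate 4 overlapped with Control-AMI replicate 1 and the other 3 were above all Control-AMI libraries (log2 fold change 1.32 ± 0.30, edgeR FDR = 0.0571).

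Mrps14 (ENSMUSG00000058267, chromosome 1, 160022785 to 160030541, plus strand), a protein of the head of the small subunit, was at 12.1, 9.95, 13.7 and 8.90 CPM in Sham, 9.61, 11.5, 5.58, 8.0 and 9.69 in Control-AMI and 18.02, 32.7, 22.4 and 11.3 in EMPA–Pre-AMI. Replicate 4 was again within the Control-AMI range (1.22 ± 0.29, edgeR FDR = 0.0571). Its 3′ end lies in the row of Cacybp on the other strand, and the strand setting of the counting is not stated.

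Mrps26 (ENSMUSG00000037740, chromosome 2, 130405658 to 130410616, plus strand), a small-subunit protein without a bacterial counterpart, was at 13.8, 14.3, 12.3 and 12.7 CPM in Sham. In Control-AMI Mrps26 was at 10.98, 12.2, 12.5, 9.33 and 11.6, and in EMPA–Pre-AMI at 14.9, 36.3, 30.6 and 13.7. All EMPA–Pre-AMI libraries were above the Control-AMI libraries, but replicates 1 and 4 only by little (1.07 ± 0.26, edgeR FDR = 0.0571).

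Mrpl33 (chromosome 5, 31754279 to 31837542), one of the shortest proteins of the particle, was at 42.8, 44.0, 31.2, 42.3 and 36.2 CPM in Control-AMI and 51.0, 101.6, 78.7 and 46.8 in EMPA–Pre-AMI (log2 fold change 0.82 ± 0.22, edgeR FDR = 0.0571). Its Sham libraries were at 39.99, 47.3, 52.7 and 43.7. The EMPA–Pre-AMI libraries were all above Control-AMI, and replicates 2 and 3 also above Sham. Its 3′ end lies in the row of Rbks.

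Mrpl1, at the stalk where spent tRNA leaves, was at 7.60, 10.9, 11.6 and 9.66 CPM in Sham. It was at 9.61, 10.5, 8.87, 9.0 and 11.9 in Control-AMI and 18.02, 29.04, 15.3 and 12.3 in EMPA–Pre-AMI (0.87 ± 0.25, edgeR FDR = 0.0629). Every EMPA–Pre-AMI library of Mrpl1 was above every Sham and Control-AMI library.

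Mrpl55, found in animal mitoribosomes, was at 33.5 to 42.0 CPM in Control-AMI and 44.3, 91.3, 61.97 and 42.9 in EMPA–Pre-AMI (0.71 ± 0.21, edgeR FDR = 0.0629). Mrpl36, a counterpart of a small bacterial protein, was at 8.12 to 15.4 CPM in Control-AMI and 17.5, 38.1, 22.4 and 15.5 in EMPA–Pre-AMI (0.87 ± 0.27, edgeR FDR = 0.0730). Mrpl36 overlaps Ndufs6, a complex I subunit, on the other strand. In neither gene did EMPA–Pre-AMI overlap with Control-AMI, although the lowest EMPA–Pre-AMI library lay next to the highest Control-AMI library in both. In both genes the EMPA–Pre-AMI libraries overlapped with the Sham libraries.

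Mrpl4, which lines the peptide tunnel in bacterial ribosomes, was at 16.1 to 27.9 CPM in Control-AMI and 23.2, 41.1, 50.4 and 29.6 in EMPA–Pre-AMI (0.75 ± 0.23, edgeR FDR = 0.0739). Mrps30 was at 11.2 to 19 in Control-AMI and 17.5, 29.6, 28.3 and 16.9 in EMPA–Pre-AMI (0.75 ± 0.23, edgeR FDR = 0.0739). In both genes replicates 2 and 3 stood highest and the groups overlapped.

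Mrps10, a protein of the head of the small subunit, was at 7.68, 5.41, 9.20, 8.0 and 10.98 CPM in Control-AMI and 13.4, 27.2, 22.1 and 7.74 in EMPA–Pre-AMI (1.07 ± 0.32, edgeR FDR = 0.0675). Replicate 4 was the only one within the Control-AMI range. With a term for the number range, which compares replicate 4 alone with Control-AMI, the log2 fold change of Mrps10 was -0.09.

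Mrps24, which in bacteria corresponds to a protein of the mRNA entry site, rested on 1 library. It was at 26.6, 21.0, 31.9, 30.7 and 26.5 CPM in Control-AMI and 37.6, 107.7, 37.4 and 30.3 in EMPA–Pre-AMI (0.94 ± 0.29, edgeR FDR = 0.0749). Without replicate 2 the log2 fold change was 0.37, and Mrps24 overlaps Urgcp on the same strand. Mrps36 was at 30.3 to 39.2 CPM in Control-AMI and 36.6, 75.01, 71.9 and 40.8 in EMPA–Pre-AMI (0.70 ± 0.23, edgeR FDR = 0.0818).

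The other 13 members past an FDR of 0.1 were Mrpl2, Mrpl9, Mrpl12, Mrpl18, Mrpl22, Mrpl38, Mrpl43, Mrpl44, Mrpl53, Mrpl54, Mrps7, Mrps9 and Mrps35, with log2 fold changes of 0.50 (Mrpl18) to 1.42 (Mrpl53). Among proteins described above for Sham hearts, Mrpl44 had 1.06 ± 0.36 and Mrpl12 0.65 ± 0.22 (edgeR FDR = 0.0904 and 0.0944). Mrpl58 had 0.03 ± 0.18, Mrps18c 0.15 ± 0.24, Mrps18a 0.29 ± 0.27, Mrps12 0.30 ± 0.25, Mrps5 0.36 ± 0.16, Mrpl45 0.37 ± 0.21 and Mrpl11 0.39 ± 0.22, none past the threshold.

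**Figure D4:**
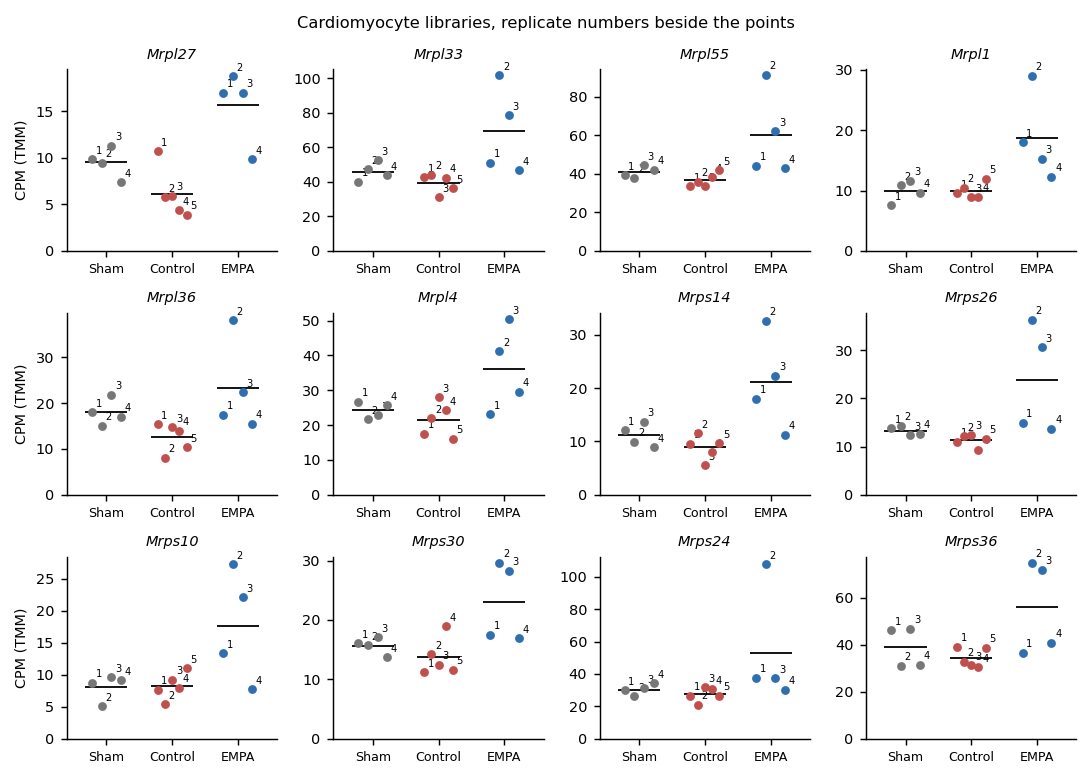
CPM of the 12 members with the smallest p per subunit in each cardiomyocyte library, scaled by TMM within cardiomyocytes; numbers beside points are replicates and bars are group means. In Mrps24 a single library stands at 107.7 CPM, and in most panels EMPA–Pre-AMI replicates 2 and 3 are the highest points.

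Among other genes of the mitochondrion in these libraries, the respiratory chain had the most calls. At an FDR below 0.1, beside 5.33% of all genes called higher, 43 of 82 nuclear respiratory chain and ATP synthase genes were higher (median log2 fold change 0.70), 2 of 13 mitochondrially encoded mRNAs (0.64) and 3 of 5 mitoribosome subunits with other symbols, namely Ptcd3 (0.76), Chchd1 (0.85) and Aurkaip1 (0.90). Of 18 assembly factors 3 were higher, Rcc1l (1.05), Ngrn (1.35) and Fastkd2 (0.74), which act on the ribosomal RNA of the large subunit. Lars2, the mitochondrial leucyl-tRNA synthetase, had 1.37 (1 of 13 synthetases) and Slirp, a stabilizer of mitochondrial mRNAs, 0.94 (1 of 6). Of 10 translation factors and 7 nuclear regulators 0 passed (medians 0.08 and -0.17). Cytosolic ribosomal proteins passed in 4 of 82 (0.28). As with the members, none of these calls remained with the range term, with the replicate number as a block or without EMPA–Pre-AMI replicates 2 and 3, where 0 of all genes tested passed an FDR of 0.1 in edgeR.

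Markers of other cells differed between the same groups. All 9 fibroblast markers tested were lower in EMPA–Pre-AMI (median -1.06, 1 past an FDR of 0.1), and their sum was 841.2 to 2017 CPM in Control-AMI and 206.3 to 1215 in EMPA–Pre-AMI. Of 10 endothelial markers 9 were lower (median -0.38, 2 past an FDR of 0.1), with sums of 715.4 to 1336 and 573.8 to 1500 CPM. No marker of either list was at 0 in every library of a group. Cardiomyocyte markers had 7 of 10 higher (median 0.19, 1 past an FDR of 0.1), and the mitochondrially encoded share was highest, 66.01%, in EMPA–Pre-AMI replicate 2. Replicate 2, one of the libraries with the highest member levels, also stood apart in other measures. Its leukocyte markers summed to 229.3 CPM, against 28.1 to 103.2 in Control-AMI and 27.4 to 87.5 in the other EMPA–Pre-AMI libraries. Its cytosolic ribosomal proteins summed to 31345 CPM, against 18491 to 19402 in Control-AMI, and its TMM factor, 0.674, was the lowest of the 13 cardiomyocyte libraries (0.918 to 1.385 in the others). Replicate 3 had 206.3 CPM of fibroblast markers, the lowest sum. The part of these measures and of other cells in the members' values was not tested.

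Against Sham, the EMPA–Pre-AMI cardiomyocytes had 73 of 77 members higher, with medians of 0.36 (large) and 0.32 (small), but 0 members passed an edgeR FDR of 0.05, where 0.338% of all genes did. An unadjusted p below 0.05 was found for 19 members, a count given without the share over all genes. DESeq2 called 0 members, beside 198 of 9167 genes. Without EMPA–Pre-AMI replicate 4 the edgeR count at an FDR below 0.05 was 10, given without the number of all genes called in that fit. This comparison shares its EMPA–Pre-AMI libraries with the one above.

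In sorted fibroblasts few members changed. In Control-AMI against Sham 1 member was lower and 0 higher (FDR < 0.05), beside 4.16% of 10691 genes called, with medians of -0.04 for the large and -0.25 for the small subunit (all genes: -0.03). This was Mrpl28 (ENSMUSG00000024181, chromosome 17, 26342469 to 26345588, plus strand), a large-subunit protein. Mrpl28 was at 17.6, 34.3, 29.1 and 22.5 CPM in Sham, 11.9, 15.0, 8.72 and 13.6 in Control-AMI and 15.6, 13.2, 15.3 and 15.1 in EMPA–Pre-AMI. All Sham libraries were above all others (-1.06 ± 0.27 for Control-AMI against Sham, edgeR FDR = 0.0353). The call was lost in 7 of 12 fits without 1 library, namely Sham 2, 3 or 4, Control-AMI 1, 2 or 3, or EMPA–Pre-AMI 3 by replicate number, with a highest FDR of 0.122, so it is not firm.

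In EMPA–Pre-AMI against Control-AMI 0 members passed in fibroblasts with edgeR, where 0.0% of all genes did, 1 member had an unadjusted p below 0.05 and DESeq2 called 0 (medians -0.05 and -0.03, 37 of 77 higher). In EMPA–Pre-AMI against Sham 2 members were lower and 0 higher, beside 5.11% of all genes called, with medians of -0.10 and -0.14. Mrpl14 (ENSMUSG00000023939, chromosome 17, 45996373 to 46010480, plus strand), which sits at the interface with the small subunit, was at 25.5, 39.6, 33.8 and 43.0 CPM in Sham, 21.9, 18.8, 23.7 and 20.6 in Control-AMI and 14.5, 18.9, 12.1 and 17.02 in EMPA–Pre-AMI. The Sham libraries were above all others (-1.18 ± 0.24, edgeR FDR = 0.00857), and the call held in all 12 fits without 1 library, with a highest FDR of 0.0334. Mrpl14 starts 7 bases from Tmem63b and overlaps it on the other strand.

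Mrpl24 was at 74.3, 98.1, 70.7 and 82.7 CPM in Sham fibroblasts, 57.5, 66.1, 73.2 and 61.7 in Control-AMI and 36.3, 61.05, 42.2 and 58.8 in EMPA–Pre-AMI. Its EMPA–Pre-AMI libraries lay below the Sham libraries (-0.71 ± 0.20, edgeR FDR = 0.0483), and the call was lost in 10 of 12 fits without 1 library. It held only without Sham replicate 1 or Control-AMI replicate 4. Of the 17 assembly factors Ngrn was lower in both comparisons with Sham. Sham replicate 2 of the fibroblasts had the highest mitochondrially encoded share, 12.5%. Its leukocyte markers summed to 550.7 CPM, against 10.6 to 34.3 in the other Sham fibroblasts. It was the highest Sham library for Mrpl28 and Mrpl24, and without it their edgeR FDR was highest (0.122 and 0.148). The part of this library in the values was not tested.

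In ECs no member passed an edgeR FDR of 0.05 in any comparison of conditions. In Control-AMI against Sham, where 6.56% of 10438 genes were called, the medians were -0.14 (large) and -0.19 (small) against -0.02 over all genes, and 23 of 77 members were higher. In EMPA–Pre-AMI against Control-AMI (2.63% of all genes called) they were 0.06 and -0.02 with 38 higher, and in EMPA–Pre-AMI against Sham (2.71% called) -0.08 and -0.19 with 26 higher. Members with an unadjusted p below 0.05 numbered 9, 4 and 7 in these comparisons, counts given without the share over all genes. DESeq2 called 2, 0 and 2 members, beside 889, 343 and 421 of 10438 genes. Ngrn, which acts in assembly of the large subunit, was lower in Control-AMI than in Sham ECs (-1.58 ± 0.38, edgeR FDR = 0.0133). Markers of other cells moved with the Control-AMI group. All 4 Control-AMI EC libraries were above every Sham EC library in summed fibroblast markers (8383, 2277, 2488 and 4687 CPM against 658.4 to 1684) and below every one in endothelial markers (8877 to 12022 against 16473.5 to 17768). The part of this shift in the EC values was not tested.

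**Figure D5:**
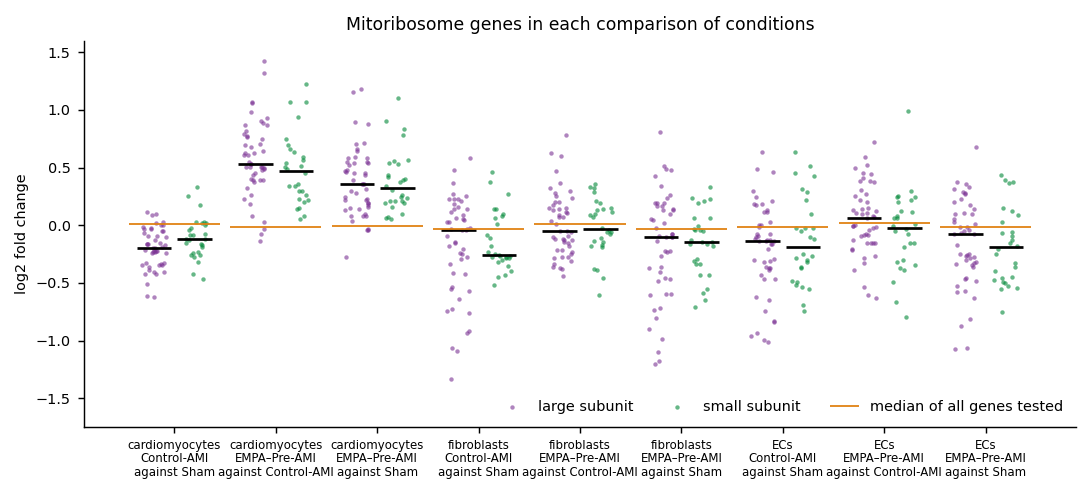
Log2 fold changes of the 49 large-subunit and 28 small-subunit genes tested in each of the 9 comparisons of conditions. Points are genes, black bars are subunit medians and orange lines the medians of all genes tested. The medians lie at 0.53 and 0.47 for EMPA–Pre-AMI against Control-AMI in cardiomyocytes, and between -0.25 and 0.06 in fibroblasts and ECs.

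The change with a condition was also compared between populations in the fit of all libraries. For Control-AMI against Sham, 1 of 77 members differed between cardiomyocytes and ECs, about as often as all 12085 genes (1.51%). It was Mrpl52, at 32.1, 33.98, 40.7 and 28.2 CPM in Sham and 22.2, 21.995, 23.6, 29.3 and 30.3 in Control-AMI cardiomyocytes, and at 28.9, 40.9, 37.5 and 31.2 in Sham and 54.4, 36.8, 53.5 and 72.2 in Control-AMI ECs (each scaled within its population). The values were mostly lower with ischemia in cardiomyocytes and mostly higher in ECs, with overlap in both (difference -1.08 ± 0.28 on the log2 scale, edgeR FDR = 0.0377). The same Control-AMI ECs were the libraries with 2277 to 8383 CPM of fibroblast markers against 658.4 to 1684 in Sham, and Mrpl52 is one of the members lower in ECs than in fibroblasts above. The part of fibroblast RNA in this value was not tested. The call was lost in 11 of 38 fits without 1 library, each of a Sham or Control-AMI library of these populations.

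For EMPA–Pre-AMI against Control-AMI, 1 of 77 members differed between cardiomyocytes and ECs, about as often as all genes (0.993%). It was Mrps10, at 15.9, 16.9, 39.4 and 16.8 CPM in Control-AMI ECs and 9.69, 13.5, 15.3, 14.8 and 16.2 in EMPA–Pre-AMI ECs, with the cardiomyocyte values given above. Control-AMI replicate 3 of the ECs stood far above the others. That library also had 714.5 CPM of leukocyte markers, against 36.7 to 61 in the other Control-AMI ECs, and a mitochondrially encoded share of 14.6% against 4.52% to 5.67%, whose part was not tested. The difference was 1.70 ± 0.43 (edgeR FDR = 0.0432), and the call was lost in 18 of 38 fits without 1 library, with the highest FDR, 0.117, without that library.

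In the other pairs of populations 0 members differed with edgeR. For cardiomyocytes against fibroblasts, 0.331% of all genes differed in Control-AMI against Sham and 0.00827% in EMPA–Pre-AMI against Control-AMI, and 5 and 18 members had an unadjusted p below 0.05. For ECs against fibroblasts these shares were 3.22% and 2.04%, and 2 and 7 members had such a p. The counts of unadjusted p are given without the share over all genes. The median difference of the members' change with empagliflozin was 0.50 between cardiomyocytes and ECs (all genes: -0.02) and 0.49 between cardiomyocytes and fibroblasts (all genes: -0.11).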

How the data were processed

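RNA of cardiomyocytes, ECs and fibroblasts was sequenced in 38 3′ libraries. Per the labels and the methods, the authors trimmed reads with cutadapt 2.8 and assigned them to GRCm39 with Salmon (version and strand setting not given in the sources used here). They deposited estimated counts per gene without normalization, of which 4.55% were not whole numbers; these were rounded. Multi-gene families and overlapping genes can split or share reads. The genome and annotation used for symbols, coordinates and start regions are of the same build, and 35407 of 35682 genes had a symbol.

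Each population was fitted with its 3 groups in R 4.3.3 with edgeR 4.0.16 (filterByExpr, minimum count 10, TMM, quasi-likelihood with robust estimation). Comparisons of populations used 1 fit of all 38 libraries with 9 groups. That fit treats the libraries as independent, although those of different populations can share hearts. The FDR threshold was 0.05, and also 0.1 for cardiomyocytes with empagliflozin. SE was the log2 fold change divided by the root of its F value. Log2 ratios of single libraries to a group mean used a pseudocount of 1. Counts of members with an unadjusted p below 0.05 are given without the share over all genes, so they cannot be set against it.

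Named members were, per comparison, the 6 of each subunit with the smallest p past the threshold, in Sham comparisons the 3 highest and 3 lowest past the threshold, and a fixed list of 14. Members and gene lists were chosen with earlier results of these data known. Alternatives were DESeq2 1.42.0, RLE factors, other filters, no robust estimation, a fit with the replicate number as a block, one with the range of the library-name number as a term, one of only the groups compared, and fits that left out 1 library each. Added after seeing the data were other library sizes, EMPA–Pre-AMI replicates 2 and 3 left out together, and only the fourth such range. The steps were tested on simulated data. Replicates were checked for duplicates, and all 62 pairs differed by more than counting error (4.60 to 87.1 times in mean square). Limits from counts of 0 cover counting error only.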

Additional observations from a re-analysis of the deposited data

Results flagged for a closer look

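A library stood apart from the others of its group in 4 of 82 groups of 4 or 5 libraries tested, where chance gives about 1 in 20. EC Control-AMI replicate 4 had a summed large-subunit level of 1266 CPM, against 1052 to 1081 in the other Control-AMI ECs. Cardiomyocyte EMPA–Pre-AMI replicate 2 had 107.7 CPM of Mrps24, against 30.3 to 37.6. Cardiomyocyte Sham replicate 3 had 269.8 CPM of Mrpl12, against 223.1 to 226.5 (TMM over all libraries). Fibroblast Sham replicate 2 had 33.6 CPM of Mrpl17, against 28.4 to 28.6 (TMM over all libraries).

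The change with a condition differed between cardiomyocytes and ECs for 2 members by a test of the difference itself. Mrpl52 differed by -1.08 ± 0.28 in Control-AMI against Sham (edgeR FDR = 0.0377), and Mrps10 by 1.70 ± 0.43 in EMPA–Pre-AMI against Control-AMI (edgeR FDR = 0.0432), both on the log2 scale as cardiomyocytes minus ECs. Each is 1 of 77 members, beside 1.51% and 0.993% of all genes, so the members were called about as often as all genes. The calls were lost in 11 and 18 of 38 fits without 1 library.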

How the results depend on the processing

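Counts of members called are given per comparison, and the number of all genes called moved with the settings as well. The number of all genes called in the same fit is in brackets. In cardiomyocytes, EMPA–Pre-AMI against Control-AMI gave 0 at an FDR below 0.05 (2 of 9167) and 25 at 0.1 (982). At 0.05 it gave 22 with DESeq2 (812) and 6 without a filter (338 of 17553). It gave 4 with a minimum of 10 counts per library (284 of 5436) and 1 without mitochondrially encoded genes (167). At 0.1 it gave 16 without a filter (780 of 17553), 3 with plain library sizes (1179) and 4 without mitochondrially encoded genes (910). The replicate block, only the groups compared, and EMPA–Pre-AMI replicates 2 and 3 left out gave 0 at 0.1 (0 in each). In fibroblasts, Control-AMI against Sham (1) gave 2 with DESeq2 and with the block, 0 without a filter, with the range term and with only the groups compared, and 3 with plain sizes and without mitochondrially encoded genes, and EMPA–Pre-AMI against Sham (2) gave 1 without a filter, with the range term and with only the groups compared. In ECs, Control-AMI against Sham gave 0 (685 of 10438), and 2 with DESeq2 (889) and without mitochondrially encoded genes (682). It gave 1 with at least 10 counts (539 of 7806), the range term (234) or plain sizes (693). EMPA–Pre-AMI against Sham gave 0 (283), and 2 with DESeq2 (421) and 1 with at least 10 counts (279 of 7806). In Sham hearts plain library sizes gave 34 (cardiomyocytes against ECs), 32 (against fibroblasts) and 6 (ECs against fibroblasts), beside 9877, 10054 and 4343 of 12085 genes. Differences in effect, cardiomyocytes minus ECs, gave 0 for Control-AMI against Sham with RLE factors (170 of 12085) or no filter (120 of 21093). They also gave 0 with at least 10 counts (44 of 4656), plain sizes (111) or without mitochondrially encoded genes (129). For EMPA–Pre-AMI against Control-AMI they gave 3 with DESeq2 (369) and 2 with RLE factors (131) or at least 10 counts (83 of 4656). They gave 0 with no filter (68 of 21093), the block (49), plain sizes (184) or without mitochondrially encoded genes (103). Cardiomyocytes minus fibroblasts gave 1 with DESeq2 (131). The cause of these changes was not tested.

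With 1 library left out the counts were 0 to 28 (FDR 0.05) and 0 to 39 (0.1) for cardiomyocytes, EMPA–Pre-AMI against Control-AMI, 0 to 10 against Sham, 0 to 3 for fibroblasts Control-AMI against Sham and 1 to 4 for EMPA–Pre-AMI against Sham, and 0 to 1 in both comparisons of ECs with Sham. Differences in effect gave 0 to 1, 0 to 2 and 0 to 5 in the same order as above. All these counts are given without the number of all genes called in the same fits. Signs turned for Mrps10 in cardiomyocytes with empagliflozin (-0.0927 with the range term, -0.0792 with only the fourth range), which both compare EMPA–Pre-AMI replicate 4 alone with Control-AMI. Scalings that moved all genes alike also turned signs, which follows from the common shift. With plain sizes (all-gene medians -1.85 and -1.83) they turned for Mrpl24 (-1.29), Mrpl27 (-1.01) and Mrps5 (-0.95) against ECs and Mrpl52 (-1.08), Mrpl20 (-0.98) and Mrps2 (-0.89) against fibroblasts, and without mitochondrially encoded genes (-0.76) for Mrpl24 (-0.20) and Mrpl52 (-0.0045).

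Replicate numbers gave no steady pairing of the libraries, which does not show that libraries of different populations came from separate hearts. Deviations of same-numbered libraries correlated between -0.113 and 0.482 over 48 pairs, 0 of 12 comparisons had every pair above 0.1, and 19 pairs correlated best with their own number. The 25 cardiomyocyte calls at an FDR of 0.1 became 0 with the replicate block, with a median of 0.51. Depth limits Mrps28, Mrps11 and Mrpl23 most, with at most 10, 31 and 40 counts per library.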
